A study of Homo sapiens with 12 samples.

Results

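The trefoil factor genes *TFF1*, *TFF2* and *TFF3* were followed in A375, an established human line from a metastatic melanoma. They are 3 of the 23705 genes in the count table and were taken by their NCBI gene numbers, 7031, 7032 and 7033. *TFF2* was picked from these same data, because its level was lower with T0070907 alone than with vehicle and higher with both compounds than with T0070907 alone. These comparisons of *TFF2*, and those that contain them, are therefore given as a description, without a test. *TFF1* and *TFF3* were added as the other members of the family.

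A375 cells were exposed for 24 h to vehicle (DMSO), to 5 μM of rosiglitazone (RGZ), to 2 μM of T0070907, or to both compounds at these doses, called the combination here. Both compounds were dissolved in the same DMSO vehicle, and all groups are the same cell line. RGZ activates the nuclear receptor PPARγ and T0070907 blocks it, and the combination was meant to separate effects through the receptor from other effects of RGZ. Independent experiments 1, 2 and 3 gave 1 library of each condition apiece, made from RNA pooled over the technical replicates of that experiment.

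Trefoil factors are small secreted proteins held in shape by disulfide bonds. Mucus-producing cells of the stomach and intestine release them together with mucins, and they are known for protecting the mucosa and helping it to close after injury. TFF1 and TFF3 each carry a single trefoil domain, while TFF2 carries a pair of them. PPARγ pairs with a retinoid X receptor on DNA and raises the transcription of its target genes when an agonist is bound. Melanoma is not a mucosal tissue, and the genes are described here only at the level of mRNA.

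The kinship of the 3 genes can be read in their coding sequence. The 30-base windows below, shown because they mark each trefoil domain and show how far apart the reads of the genes are, come from the GENCODE release 29 transcripts on GRCh38, minus strand of chromosome 21. Capitals mark the 9 bases in frame that encode the cysteine pair and phenylalanine in each of these 4 windows.
TFF1, exon 2, chr21:42363308-42363337: aaataagggcTGCTGTTTCgacgacaccgt
TFF2, first domain, exon 2, chr21:42349922-42349951: tgacaatggaTGCTGTTTCgactccagtgt
TFF2, second domain, exon 3, chr21:42347527-42347556: ctctcggaagTGCTGCTTCtccaacttcat
TFF3, exon 2, chr21:42313526-42313555: caaccggggcTGCTGCTTTgactccaggat

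The first domain of *TFF2* shared 21 of 30 bases with the window of *TFF1* and 20 with that of *TFF3*, but only 11 with the window of its own second domain. Over whole transcripts, the longest run of identical bases was 15 between *TFF1* and *TFF2*, 11 between *TFF2* and *TFF3* and 10 between *TFF1* and *TFF3*. None of the 708 30-base words of the longest *TFF2* transcript occurs in a transcript of another gene, and the same holds for the 522 words of *TFF1* and the 1080 words of the longest *TFF3* transcript. Over all 3 annotated *TFF2* transcripts, 17 of 859 words occur in transcripts of other genes and 10 in the opposite strand of such transcripts. The genes lie side by side on the minus strand of chromosome 21 of GRCh38. *TFF3* spans positions 42311667 to 42315651, *TFF2* spans 42346357 to 42351128 and *TFF1* spans 42362282 to 42366594, and 0 other annotated genes overlap any of them. The submitters' processing notes name the older build hg19, and the count table carries gene numbers without coordinates.

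The libraries held between 8319455 and 11375227 counts, and the T0070907 group included the deepest one. A gene with 3 counts, taken as the floor of detection, corresponded to between 0.258 and 0.371 CPM (counts-per-million, after scaling). The cells carried *SOX10*, a transcription factor of the melanocyte lineage, at 311 ± 109 CPM with vehicle (SD, n = 3), whereas the pigment gene *TYR* had 0 counts in every library. Of 13 listed genes of gastrointestinal and other secretory epithelium, 12 were in the table, and only the keratins *KRT8* and *KRT18* passed the filter on low counts. The epithelial adhesion genes *EPCAM* and *CDH1* had at most 5 and 1 counts in a library, and *VIL1* and *REG4* were at 0 throughout. The summed level of the 12 genes ranged from 337 to 747 CPM with vehicle and from 364 to 690 CPM with RGZ, which overlap. The 7 melanocyte and melanoma markers summed to between 280 and 498 CPM with vehicle and between 229 and 422 with RGZ, and the 3 markers of a neural crest state to between 647 and 810 and between 470 and 657. *SOX10* made up most of the melanocyte and melanoma sum. *PMEL* had 1.13 ± 0.347 CPM with vehicle (SD, n = 3), and *MLANA* and *DCT* had at most 6 and 1 counts in a library. In edgeR with the experiment in the model, *S100B* (log2 ratio -1.02, adjusted p = 3.73e-05), *MITF* (-0.34, 0.00997), *NGFR* (-1.18, 1.01e-04) and *AXL* (-0.22, 0.0434) were lower with RGZ than with vehicle, and 0 of these were called without that term. They are 2 of 4 tested melanocyte and melanoma markers and 2 of 3 neural crest markers, while 9.3% of all tested genes were called with that term and 1.24% without it. Their part in the results on *TFF2* was not tested.

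*TFF2* mRNA was present at a low level in vehicle-treated cells, was several-fold more abundant with RGZ and was close to the floor with T0070907 alone. *TFF3* was low in every condition, and *TFF1* was not detected. In bulk RNA, fewer cells that carry an mRNA and less of it per cell cannot be told apart.

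*TFF2* (NCBI gene 7032) had 32, 42 and 40 counts in the vehicle libraries of experiments 1, 2 and 3. It had 201, 197 and 181 counts with RGZ. With T0070907 alone it had 6, 7 and 15 counts, although the libraries of experiments 2 and 3 were the deepest of all 12. With the combination it had 39, 37 and 57 counts. The 3 RGZ libraries stood above all others and the 3 T0070907 libraries below all others, while vehicle and combination libraries overlapped.

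After scaling, mean *TFF2* levels ± SD (n = 3 each) were 20.6 ± 2.08 CPM for RGZ, 4.94 ± 1.11 for the combination, 4.45 ± 0.718 for vehicle and 0.871 ± 0.367 for T0070907. The order from high to low was RGZ, combination, vehicle and T0070907 in experiments 1 and 3, and vehicle and combination changed places in experiment 2. Combination and vehicle, the neighbours in the middle, did not differ beyond their spread. Within an experiment, the highest level was 30.1, 35.9 and 14.2 times the lowest. The smaller range in experiment 3 came with the highest of the T0070907 values, 1.29 CPM, against 0.693 and 0.627 in experiments 1 and 2. Counts this low carry a counting error of their own, and the exact 95% Poisson interval was 2.2 to 13.1 for 6 counts and 8.4 to 24.7 for 15 counts.

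**Figure D1:**
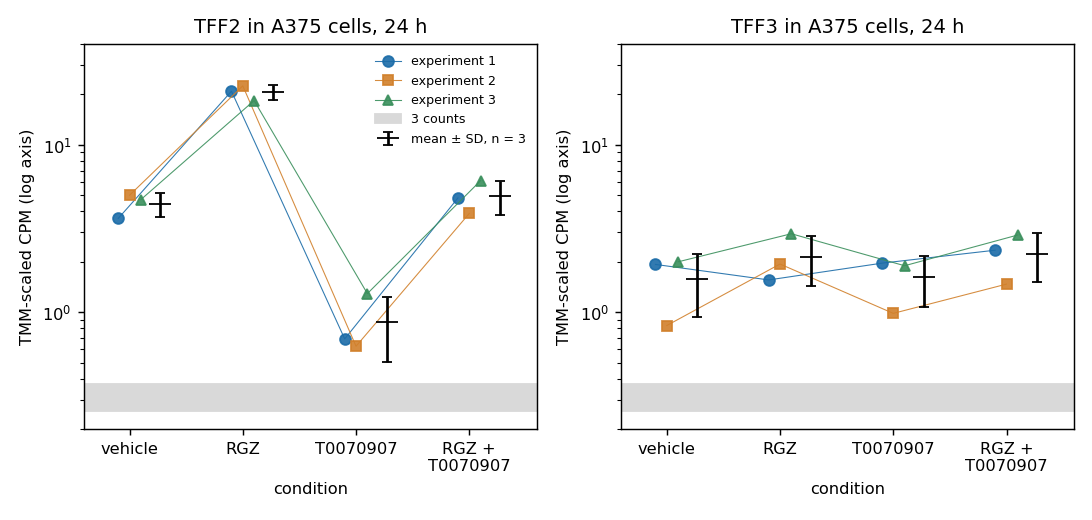
Levels of *TFF2* (left) and *TFF3* (right) in TMM-scaled CPM on a log axis, by condition. Points are single libraries joined within an experiment, black bars are the mean ± SD of 3 libraries, and the grey band is the level of 3 counts across the libraries (0.258 to 0.371 CPM). *TFF2* is highest with RGZ (18.4 to 22.5 CPM) and lowest with T0070907 (0.627 to 1.29 CPM), while the *TFF3* groups overlap.

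Divided by the length of the longest transcript, 737 bases, the *TFF2* level was 6.03 CPM per kb with vehicle, and 43.8% of the tested genes for which a length was known were as low or lower per kb. With RGZ it was 27.9 CPM per kb, a level that 79.3% of these genes did not exceed. With T0070907 it was 1.18 CPM per kb, and 15.6% of the genes were as low or lower. With the combination it was 6.70 CPM per kb, and the share was 46.8%. *TFF2* per length thus stood near the middle of the tested genes with vehicle and the combination, above it with RGZ and below it with T0070907.

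The effect of the agonist was tested first, since the choice of *TFF2* did not use RGZ against vehicle directly, although the vehicle libraries are shared with the comparison that chose it. RGZ raised *TFF2* in all 3 experiments, at ratios to vehicle of 5.75, 4.50 and 3.90. This is a log2 ratio of 2.21 (SE, the standard error, 0.22, 95% interval 1.72 to 2.69), or 4.62-fold, with an adjusted p of 5.05e-04 (quasi-likelihood test of edgeR, adjusted by Benjamini-Hochberg over 13522 tested genes). A second fit, called the blocked fit, also modelled the experiment that each library came from, and its log2 ratio for *TFF2* was again 2.21 (SE 0.17, adjusted p = 1.22e-07). *TFF2* was 1 of 2 tested members, and 1.24% of all tested genes were called for RGZ, against 9.3% in the blocked fit. By the size of its increase *TFF2* ranked 25 among the 13522 genes, and by its p-value it ranked 11.

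The effect of adding the antagonist to RGZ was also not part of the choice, although the combination libraries are shared with it. *TFF2* was lower with the combination than with RGZ alone in all 3 experiments, at ratios of 0.231, 0.173 and 0.332. The log2 ratio was -2.06 (SE 0.22, 95% interval -2.53 to -1.58, adjusted p = 0.00155 in edgeR's test), and -2.06 again in the blocked fit (SE 0.16, adjusted p = 2.64e-07). The share of tested genes called in this comparison was 1.24%, and 11.4% in the blocked fit. *TFF2* ranked 21 from the largest decrease. The groups of 3 libraries did not overlap in either comparison, and the two-sided exact permutation test of the *TFF2* level gave p = 0.1 for each, the smallest p that 3 libraries against 3 allow. Groups of 3 did not overlap for 16.8% of all tested genes in RGZ against vehicle and for 17.7% in the combination against RGZ.

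The comparisons that chose *TFF2* are described without a test. T0070907 alone gave 0.191, 0.125 and 0.275 times the vehicle level in experiments 1, 2 and 3, and the log2 difference was -2.31 (SE 0.28). The combination gave 6.95, 6.21 and 4.73 times the level of T0070907 alone, with a log2 difference of 2.46 (SE 0.28). Of all tested genes, the unblocked fit called 0.0074% for T0070907 against vehicle and 0.037% for the combination against T0070907, and the blocked fit called 0.91% and 8.76%. The *TFF2* groups did not overlap in either, as was so for 7.67% and 18.7% of all tested genes. *TFF2* is itself counted in all of these shares, and it is the only gene in the 0.0074%. Both comparisons use the same T0070907 libraries, and nothing is read from these shares about *TFF2*.

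Against vehicle, the combination left *TFF2* at ratios of 1.33, 0.779 and 1.30. The log2 difference was 0.15 (SE 0.23), and no test is given because this comparison is the sum of both that chose the gene. For the combination against vehicle, edgeR called 0% of the tested genes in both fits, and 1438 genes had an unadjusted p under 0.05 in the unblocked fit. The *TFF2* groups overlapped here, and 12.2% of all tested genes had groups that did not. The ratio that RGZ gave for *TFF2* can also be set beside the ratio it gave in the presence of the antagonist. The quotient of the RGZ ratio with T0070907 to that without it was 1.21, 1.38 and 1.21 in the 3 experiments, and the log2 difference of these effects was 0.25 (SE 0.35), also given without a test. This value rests on the 6, 7 and 15 counts of the T0070907 libraries. Leaving out single libraries moved it between 0.05 (without T0070907 of experiment 2) and 0.68 (without T0070907 of experiment 3).

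**Figure D2:**
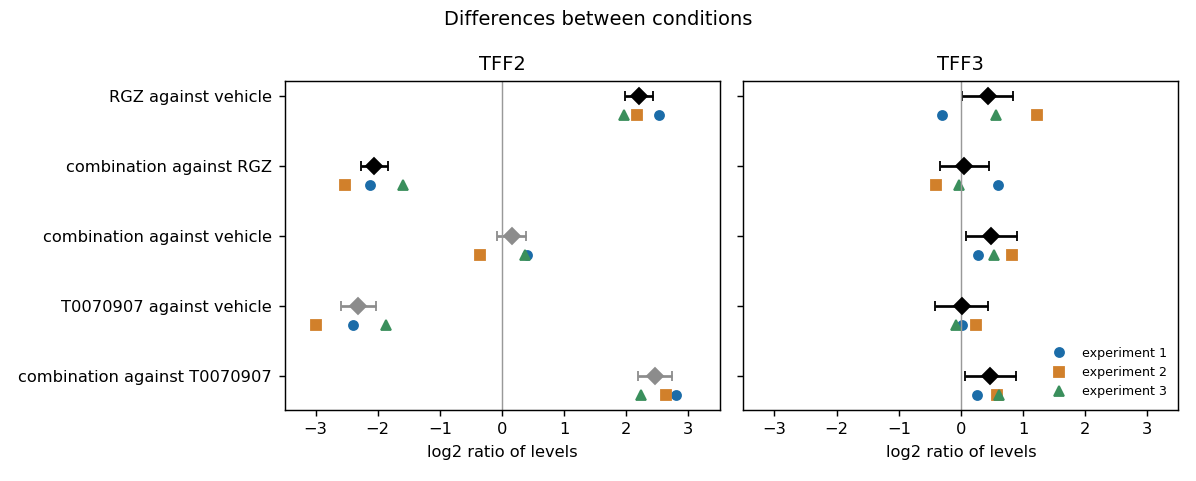
Log2 ratios between conditions for *TFF2* (left) and *TFF3* (right). Diamonds with bars are the estimate of the unblocked fit ± its standard error, grey where the comparison took part in the choice of *TFF2* or is the sum of those that did, and the coloured points beneath are the ratios within experiments 1 to 3. All 3 *TFF2* ratios lie on the same side of 0 in each comparison except combination against vehicle, and the *TFF3* estimates lie between 0.01 and 0.49.

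*TFF3* (NCBI gene 7033), which in the gut is a product of goblet cells, had 17, 7 and 17 counts with vehicle in experiments 1, 2 and 3. RGZ gave 15, 17 and 29 counts, T0070907 gave 17, 11 and 22, and the combination gave 19, 14 and 27. All 4 groups overlap. Within experiments, *TFF3* with the combination was 1.22, 1.77 and 1.45 times the vehicle level and between 1.20 and 1.53 times the T0070907 level, higher in 3 of 3 experiments in each case. Mean levels ± SD (n = 3 each) were, from the highest down, 2.24 ± 0.717 CPM for the combination, 2.15 ± 0.715 for RGZ, 1.61 ± 0.547 for T0070907 and 1.59 ± 0.655 for vehicle. Neighbours in this order did not differ beyond their spread. Experiment 2 gave the lowest *TFF3* level with vehicle, T0070907 and the combination.

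*TFF3* was not called in any of the comparisons tested, in either fit. The log2 ratio for RGZ was 0.43 (SE 0.41, 95% interval -0.46 to 1.33, adjusted p = 0.766 in edgeR's test), and it was 0.43 in the blocked fit (SE 0.29, adjusted p = 0.422). For T0070907 alone it was 0.01 (SE 0.42, 95% interval -0.91 to 0.93, adjusted p = 1). The combination gave 0.49 against vehicle (SE 0.41, 95% interval -0.41 to 1.38, adjusted p = 0.695) and 0.05 against RGZ (SE 0.40, 95% interval -0.81 to 0.92, adjusted p = 0.974), and 0.47 against T0070907 (SE 0.40, 95% interval -0.40 to 1.35, adjusted p = 0.629). The interaction of both compounds was 0.04 (SE 0.58, adjusted p = 1), a comparison in which edgeR called 0% of the tested genes, and 0.281% in the blocked fit. The blocked interval for RGZ was -0.18 to 1.03. The log2 ratio of *TFF2* with RGZ, 2.21, lies above both *TFF3* intervals for RGZ. The difference between both genes was not tested itself.

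Per length, *TFF3* had 1.43 CPM per kb with vehicle when divided by its longest transcript of 1109 bases, and 3.90 when divided by its shortest of 407 bases. *TFF2* had 6.03 and 8.05 CPM per kb with its longest transcript of 737 and its shortest of 552 bases. *TFF2* was the more abundant of the pair per length in vehicle-treated cells on either basis. With T0070907 the means by the longest transcripts were 1.18 CPM per kb for *TFF2* and 1.46 for *TFF3*, but the order was not the same in every experiment, with 1.75 for *TFF2* and 1.71 for *TFF3* in experiment 3. By the shortest transcripts the T0070907 means were 1.58 for *TFF2* and 3.97 for *TFF3*.

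*TFF1* (NCBI gene 7031), an estrogen-responsive gene in breast cells and a product of the surface cells of the stomach, had 0 counts in all 12 libraries. These libraries hold 112338357 counts together, and a count of 0 in them allows a level of up to 0.0267 CPM before scaling, for counting error only. *TFF1* did not pass the filter on low counts, so that 2 of the 3 members were tested.

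*TFF1* and *TFF3* flank *TFF2*, and the surroundings of the cluster were examined in the order of the RefSeq gene table. Of the 10 listed genes on either side, 12 of the 20 passed the filter. For RGZ against vehicle 1 was called, and in the blocked fit 3, 2 of them higher and 1 lower, beside 1.24% and 9.3% of all tested genes. The median log2 ratio of the 12 genes was 0.02, beside -0.01 for all tested genes. *ABCG1*, a sterol transporter gene and the nearest tested gene on the side of *TFF3*, had a log2 ratio of 0.40 (SE 0.48, adjusted p = 0.832 in edgeR's test). *TMPRSS3*, a serine protease gene next to *TFF1*, had 0.85 (SE 0.56, adjusted p = 0.641, blocked 0.0328), from low levels of 1.88 ± 1.05 CPM with vehicle and 3.41 ± 1.10 with RGZ (SD, n = 3 each).

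Farther out, *PDE9A*, which encodes a cyclic GMP phosphodiesterase, had 98, 84 and 127 counts with vehicle and 155, 133 and 231 with RGZ. It had 52, 53 and 93 counts with T0070907 and 108, 80 and 189 with the combination. The log2 ratio of *PDE9A* was 0.60 for RGZ (SE 0.30, adjusted p = 0.518, blocked 0.00356) and -0.38 for the combination against RGZ (SE 0.30, adjusted p = 0.617, blocked 0.0381). *CBS*, which encodes cystathionine β-synthase, went down with RGZ (log2 ratio -0.50, SE 0.09, adjusted p = 0.0225, blocked 4.26e-04), and the combination exceeded RGZ by 0.53 (SE 0.09, adjusted p = 0.0144). The *CBS* call for RGZ was lost when 1 vehicle library (experiment 1 or 2) or 1 RGZ library (experiment 1 or 3) was left out, with adjusted p-values between 0.0727 and 0.101, and that against the combination was lost without the RGZ library of experiment 1 or 3 or the combination library of experiment 1 (0.0571 to 0.0744).

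**Figure D3:**
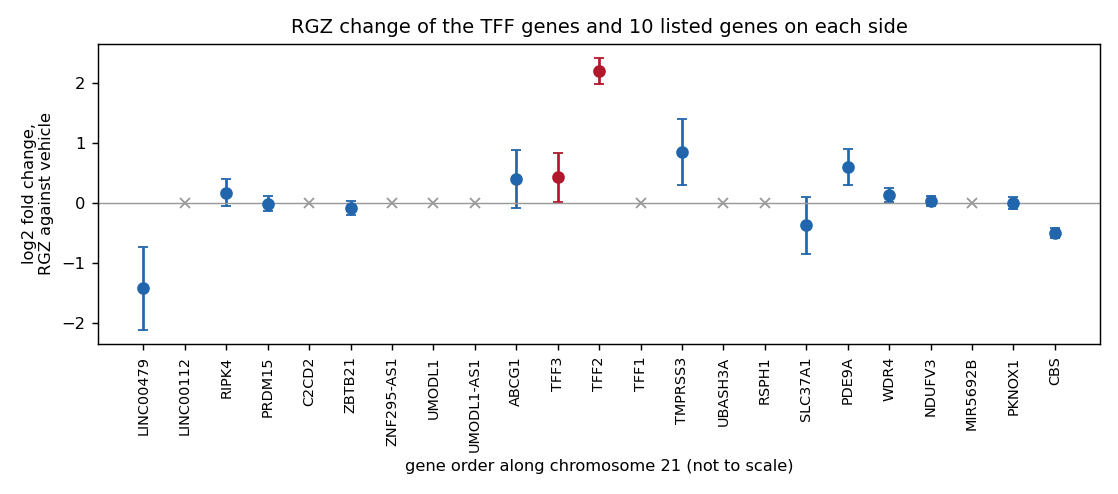
Log2 fold change for RGZ against vehicle ± SE of the 3 TFF genes (red) and the 10 listed genes on each side (blue), in their order along chromosome 21. Crosses at 0 mark genes that did not pass the filter on low counts and have no value, *TFF1* among them. *TFF2* stands at 2.21 and its nearest tested neighbours, *TFF3* and *TMPRSS3*, at 0.43 and 0.85.

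The proteins that trefoil factors work with were mostly below the filter. Of 10 mucins and secreted partners, 9 were in the table and 4 passed the filter, and *GKN1* and *GKN2*, which encode gastrokines of the stomach, had 0 counts. For RGZ 0 of the 4 were called in the unblocked fit of edgeR, and 1 in the blocked fit, where 1.24% and 9.3% of all tested genes were called. This gene was *DMBT1*, which encodes a large mucosal glycoprotein of the scavenger receptor cysteine-rich family. *DMBT1* had 6, 34 and 7 counts in the vehicle libraries and 22, 105 and 29 in those of RGZ. T0070907 gave 2, 22 and 5 counts, and the combination 3, 48 and 11. Experiment 2 was the highest in every condition, and within each experiment RGZ was the highest and T0070907 the lowest. The log2 ratio for RGZ was 1.62 in the unblocked fit (SE 0.95, adjusted p = 0.596) and 1.65 in the blocked one (SE 0.22, adjusted p = 6.88e-05), and that of the combination against RGZ was -1.34 unblocked (SE 0.92, adjusted p = 0.572) and -1.40 blocked (SE 0.21, adjusted p = 2.14e-04).

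*MUC2*, the main gel-forming mucin of the intestine, did not pass the filter and is named after its values were seen. It had 2, 40 and 4 counts with RGZ in experiments 1, 2 and 3, and between 0 and 11 counts in the 9 other libraries. Its RGZ level thus rests on experiment 2. *MUC5B* and *MUC1*, which also encode mucins, had 32.9 ± 14.6 and 6.51 ± 1.48 CPM with vehicle (SD, n = 3 each), with log2 ratios of -0.16 and -0.28 for RGZ that were not called in either fit.

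Of 8 receptors described for trefoil factors, 3 passed the filter. Of the others, *LINGO2* had at most 13 counts in a library, *CXCR4* at most 1 and *ACKR3* at most 4. The 3 tested genes, *ITGB1*, *EGFR* and *F2RL1*, were not called for RGZ or for the combination against RGZ in either fit. Of all tested genes, 1.24% and, blocked, 9.3% were called for RGZ, and 1.24% and 11.4% for the combination against RGZ. The median log2 ratio of the 3 genes for RGZ was -0.34, beside -0.01 for all tested genes. Of 6 genes for other proteins with a trefoil domain, 3 passed the filter and 0 were called for RGZ in either fit of edgeR, which called 1.24% and, blocked, 9.3% of all tested genes. *GAA*, the lysosomal α-glucosidase, was not called for the combination against RGZ in the unblocked fit and was higher in the blocked fit (log2 ratio 0.30, SE 0.09, adjusted p = 0.0364). It was 1 of the 3 tested genes, beside 11.4% of all tested genes called in the blocked fit of that comparison.

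Of 17 transcription factors described as acting on trefoil factor genes, 11 passed the filter. For RGZ 1 was called, and in the blocked fit 3, 1 higher and 2 lower, where the shares of all tested genes were 1.24% and 9.3%. The median log2 ratio of the 11 genes was -0.07, beside -0.01 for all tested genes. The gene that rose was *KLF4*, a zinc finger factor of epithelial differentiation. *KLF4* had 151, 141 and 157 counts with vehicle and 421, 438 and 471 with RGZ. T0070907 gave 83, 102 and 111 counts, and the combination 101, 189 and 206. After scaling, the RGZ libraries of *KLF4* were above and the T0070907 libraries below all others, as for *TFF2*, over a narrower range. The log2 ratio was 1.43 for RGZ (SE 0.16, adjusted p = 0.00122 in edgeR's test) and -1.37 for the combination against RGZ (SE 0.16, adjusted p = 0.00222).

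Among the factors that fell with RGZ in the blocked fit was *STAT3*, which carries cytokine signals to the nucleus, at a log2 ratio of -0.31 (SE 0.07, adjusted p = 0.00463 in edgeR). In the combination against RGZ, *KLF4* was called in the unblocked fit, and *STAT3* and *PPARG* (higher) and *KLF4* and *HIF1A* (lower) in the blocked fit, beside 1.24% and 11.4% of all tested genes. *ESR1*, the estrogen receptor, had at most 5 counts in a library, and *FOXA2*, *FOXA3*, *CDX2* and *SPDEF*, factors of gut and other secretory epithelium, likewise stayed at 5 counts or fewer.

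*TFF2* was set beside 28 described PPAR target genes, of which 24 were tested. For RGZ 13 of these were called, and 17 in the blocked fit, all higher, against 1.24% and 9.3% of all tested genes in either direction, and the median log2 ratio was 0.95 beside -0.01 for all tested genes. The *TFF2* increase of 2.21 was exceeded by 8 of the 24, among them *ANGPTL4*, *FABP4*, *PLIN2*, *PLIN4*, *PDK4*, *CD36* and *CREB3L3*, which act in the storage, transport and burning of fatty acids or, as *CREB3L3*, in their transcription. *ANGPTL4*, which encodes an inhibitor of lipoprotein lipase, had 5.67 ± 2.50 CPM with vehicle and 428 ± 37.8 with RGZ, and *PLIN4*, a lipid droplet coat gene, had 7.35 ± 2.58 and 128 ± 54.7 (SD, n = 3 each). *CREB3L3* had 0.508 ± 0.185 CPM with vehicle and 12.2 ± 2.34 with RGZ. *FABP4* and *CD36* had vehicle means of 0.117 and 0.115 CPM, below the level of 3 counts, so that the size of their fitted fold changes depends on the prior count. For the combination against RGZ 12 were called, and 16 in the blocked fit, all lower, beside 1.24% and 11.4% of all tested genes. The median was -0.82 beside 0.01, and the same 8 genes had a larger decrease than *TFF2*. For T0070907 against vehicle 0 were called in edgeR's unblocked fit and 8 in the blocked fit, all lower. The shares of all tested genes were 0.0074%, which is *TFF2* alone, and 0.91%. The median was -0.36 beside 0.00. *ANGPTL4*, *PLIN4* and *CD36* had a lower fitted log2 value than *TFF2* there, but *CD36* was below the level of 3 counts in both groups, so that no order is read from its value. In the combination against T0070907, *PLIN2* and *ACAA2* were called, and 13 genes in the blocked fit, all higher, beside 0.037% and 8.76% of all tested genes.

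To find the genes with the pattern most like that of *TFF2*, the Pearson correlation with its log2 CPM was computed over the 12 libraries after the mean of each experiment was subtracted. The libraries share conditions and experiments, so that r describes likeness over these 12 libraries and nothing more. The 8 genes most alike among the tested genes were *ECH1* (r = 0.988), *ANXA1* (0.987), *AKR1C2* (0.985), *TPM3* (0.983), *WSB2* (0.982), *SRPX* (0.982), *IL1B* (0.982) and *ACAA2* (0.981). *ECH1* and *ACAA2* encode enzymes of fatty acid β-oxidation, *ANXA1* the lipid-binding protein annexin A1, *TPM3* a tropomyosin and *IL1B* the cytokine interleukin-1β. *AKR1C2* belongs to a family of near-identical genes among which reads may be split.

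The genes most like *TFF2* were chosen for its pattern and followed it over ranges of different size. For RGZ against vehicle, *ECH1* and *ACAA2* were called in both fits (*ECH1* not without the vehicle library of experiment 1, adjusted p = 0.0522 in edgeR, or in a fit of only the groups compared, 0.0592), *ANXA1*, *AKR1C2*, *WSB2*, *SRPX* and *IL1B* in the blocked fit only, and *TPM3* in neither. The SD of the centred log2 values was 1.61 for *TFF2*, which ranked 11 among all tested genes, 1.78 for *IL1B* and 0.06 for *TPM3*. This SD includes the vehicle, T0070907 and combination libraries by which *TFF2* was picked, so nothing is read from its rank. *ECH1* had mean levels of 240 CPM for RGZ, 145 for the combination, 129 for vehicle and 80.1 for T0070907 (n = 3 each). *IL1B*, the gene nearest to *TFF2* in size, had 6, 80 and 6 counts in the vehicle libraries and 59, 269 and 62 in those of RGZ. T0070907 gave 0, 11 and 1 counts of *IL1B*, and the combination 12, 87 and 21. Experiment 2 was the highest in each condition, which was not so for *TFF2*. The *IL1B* log2 ratio for RGZ was 1.98 (adjusted p = 0.53, blocked 5.26e-06). The most opposite genes were *ABAT* (r = -0.986), *ENC1* (-0.985) and *LAMB2* (-0.983). *TFF3* had r = 0.428 with *TFF2* (Spearman's rho 0.503).

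**Figure D4:**
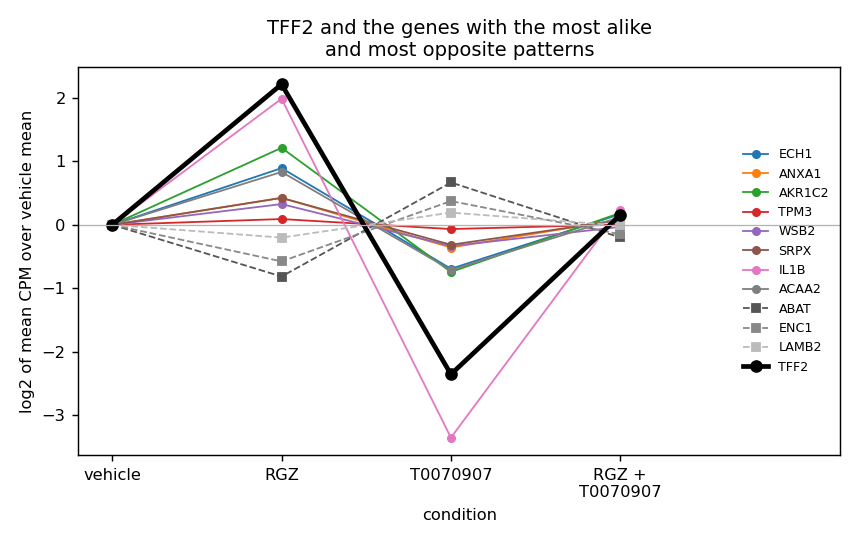
Log2 of the mean CPM of each condition over the vehicle mean for *TFF2* (thick black line), the 8 genes with the most alike pattern (solid lines) and the 3 most opposite (dashed grey lines). *TFF2* spans the range from 20.6 CPM with RGZ to 0.871 CPM with T0070907, *IL1B* follows it, and the other alike genes keep the shape over a smaller range.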

How the data were processed

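RNA sequencing was done on 12 libraries of A375 cells. The authors deposited 1 table of raw counts per NCBI gene number, and the submitters' processing notes name the build hg19. The aligner, the counter, the annotation and the use of strand are not given in the sources used here. The members and gene lists were chosen with earlier results of these data known. Counts were scaled by TMM and tested with edgeR 4.0.16 (R 4.3.3), using filterByExpr, a model of the 4 conditions over all 12 libraries, the quasi-likelihood test and Benjamini-Hochberg adjustment over 13522 genes at a threshold of 0.05. A standard error is the log2 fold change divided by the square root of F. The fit with the experiment as a replicate block was an alternative. The labels give the replicate number as the experiment, and deviations of same-numbered libraries from their group means had a mean r of 0.554 over 18 pairs, of which 17 were over 0.1. DESeq2 1.42.0, other scaling and filters, fits of only the groups compared and leaving out each library were further alternatives. The code was tested on simulated data.

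Named were the 3 trefoil factor genes, the members of each list called with or without the block for RGZ against vehicle or the combination against RGZ (the 5 with the largest log2 fold change where more were called), the nearest tested gene on each side of the cluster, and the 8 genes most like and 3 most unlike *TFF2*. Genes named beyond this rule were chosen after their values were seen, and some genes that the rule names are not reported here. Transcript lengths, positions and sequence windows came from GENCODE release 29 (GRCh38), and gene order from RefSeq. The table of RefSeq promoters matched 0 of the 3 genes, and promoters, proteins and *MUC5AC* were not analysed here. Intervals and floors cover counting error only.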

Additional observations from a re-analysis of the deposited data

How the results depend on the processing

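Under every alternative that gave a value, *TFF2* kept its direction and its call for RGZ against vehicle and for the combination against RGZ, and *TFF3* was not called. Leaving out 1 library gave *TFF2* log2 fold changes of 2.08 to 2.30 for RGZ (adjusted p at most 0.00683) and -2.24 to -1.91 for the combination against RGZ (at most 0.0122), and the fit of only the groups compared gave an adjusted p of 0.0154 for the latter. Requiring at least 10 counts in every library removed *TFF2* and *TFF3*, which then had no value. Without T0070907 replicate 3, the *TFF2* difference of the combination from T0070907 was 2.89. The numbers of genes called moved more. In the order RGZ against vehicle, T0070907 against vehicle, combination against RGZ, combination against T0070907 and interaction, they were 167, 1, 167, 5 and 0 in edgeR, 1258, 123, 1545, 1185 and 38 with the replicate block, and 302, 21, 313, 87 and 1 with DESeq2. Without a filter, 3 genes were called for T0070907 against vehicle and 10 for the combination against T0070907, and with at least 10 counts 0 were called for T0070907 against vehicle. The fit of only the groups compared called 69 genes for RGZ against vehicle, 41 for the combination against RGZ and 0 for the combination against T0070907. Leaving out 1 library gave 45 to 168, 0 to 5, 53 to 148, 0 to 14 and 0 to 1 genes in the order above. Low counts of 45 for RGZ and 53 for the combination against RGZ were reached without vehicle replicate 1 and without combination replicate 1. The 1 gene called for T0070907 against vehicle in the unblocked fit was *TFF2* itself, which this comparison helped to choose. Nothing is therefore read from this call or from its loss in other settings. With at least 10 counts required, the 0 for T0070907 against vehicle came with the removal of *TFF2* by that filter. The cause of the other moves was not tested.

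The alternatives for lists and for genes outside the family were chosen after seeing the data. Called transcription factors numbered 1 for RGZ, 2 with DESeq2 and 3 with the replicate block, and 4 with the block for the combination against RGZ. Called PPAR targets for RGZ numbered 8 with at least 10 counts. Called neighbours on chromosome 21 numbered 3 for RGZ and 2 for the combination against RGZ with the block, 0 for both in the fit of only the groups compared, and 0 to 1 for both when 1 library was left out. Of 990 values of 56 results for named genes outside the family, 25 lost and 33 gained a call, 28 of these with the replicate block, and 0 reversed. The block changed no call of *TFF2* or *TFF3* that was tested.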
